A study of Homo sapiens with 12 samples.

Results

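The genes described here are 44 human genes of NF-kB signalling and inflammatory cytokines, chosen by name from a list and read from a table of gene counts that held 78930 genes. They comprise cytokine and chemokine ligands, 2 receptors, the 5 NF-kB subunits, 5 members of the IkB family, 5 adaptors or ubiquitin-editing proteins and 8 genes that respond to the pathway. The choice was made with earlier results of these data known, so shares of members set against all genes are descriptive. Of the 44, 39 had enough counts to be tested. The other 5 were almost silent: IL6 had no count in 10 of 12 libraries and 1 count at most, and IL1A, CCL4, CCL20 and BIRC3 had at most 9, 3, 12 and 12 counts in any library.

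NF-kB is a family of transcription factors made of paired subunits that wait in the cytoplasm, bound by inhibitors of the IkB family. Signals from the interleukin 1, tumour necrosis factor (TNF) and Toll-like receptors lead to removal of the inhibitor, and the freed factor enters the nucleus and switches on cytokines, chemokines and adhesion molecules, together with its own inhibitors, among them NFKBIA and TNFAIP3. In myeloid cells these genes make up much of the inflammatory output of monocytes and macrophages, and a separate branch through NFKB2 and RELB acts more slowly downstream of receptors such as CD40.

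RNA was sequenced from OCI-AML3 cells, a human acute myeloid leukaemia line with 1 mutant nucleophosmin allele whose protein is cytoplasmic (NPM1c); here that protein carries a degron, a tag through which the small molecule dTAG-13 triggers its destruction, and the design names the other allele as wild type. The cell line label carries a different line number in each sample, and OCI-AML3, the line named in the protocol, was taken for all of them. Cells were transduced with a lentivirus for FL-NPM1c-mCherry (dTAG FL-NPM1c), for a construct called C-body null fused to mCherry (dTAG C-body null), or for mCherry alone (dTAG mCherry), received 500 nM dTAG-13 at 48 hours and were sorted for mCherry 24 hours after that. The fourth group, NTC DMSO, carries the degron with no construct named and received solvent by its titles, although its treatment label reads dTAG, so drug, construct and sort cannot be told apart in a comparison with it. Each group had 3 libraries; what the C-body null construct lacks and what NTC stands for are not given, and the labels leave unsaid whether replicates were grown separately, so p-values reflect just the scatter among these samples, possibly a technical one.

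The libraries held 30.5 M to 59.9 M counts, with a median of 41.0 M, and levels are given as CPM, the usual depth-scaled unit of counts over the TMM-adjusted library total. NPM1 itself averaged 1651 CPM in dTAG FL-NPM1c cells, 1922 in dTAG C-body null, 1252 in dTAG mCherry and 1430 in NTC DMSO, a count that joins construct and endogenous transcript and does not measure degradation of protein. Markers of myeloid blasts were expressed (9 of 10 tested), while 8 of 10 T and NK cell markers and 7 of 8 B and plasma cell markers stayed under 1 CPM in all 12 libraries. The mitochondrial share of counts was 8.41%, 7.32% and 9.63% in the 3 dTAG mCherry libraries and 6.83% to 7.63% in the rest.

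Cells on dTAG-13 with mCherry alone had more transcript of several inflammatory ligands, receptors and feedback genes than cells of the NTC DMSO group. Drug, construct and sort cannot be told apart in this comparison. In dTAG mCherry against NTC DMSO, 13 of the 39 tested members rose and 2 fell (edgeR quasi-likelihood test, Benjamini-Hochberg adjusted p under 0.05 over all genes), and none of the 5 NF-kB subunits was called. The background was high: 22.6% of all 24064 tested genes were called in this comparison, 12.9% higher and 9.69% lower, against 38.5% of the members. The median change of the members was 0.17 on the log2 scale, against -0.0016 for all genes. The largest increases were those of IL1B, IER3, LIF, ICAM1, CXCL3, TNFAIP3, PTGS2 and TNFRSF1B, each at least 2-fold.

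Full-length NPM1c, set against mCherry alone with both on dTAG-13, divided the members. With FL-NPM1c 10 members were higher and 8 lower than in dTAG mCherry, 46.2% of those tested, where 15.5% of all genes were called (7.58% higher, 7.95% lower). The share of all genes depended on single libraries. Leaving out FL-NPM1c replicate 2 gave 6.61% and 13 members, and leaving out its replicate 1 gave 7.46% and 17 members. Of the dTAG mCherry libraries, replicate 1 or 3 left out gave 8.9% or 7.63% and 16 members in both cases. With dTAG mCherry replicate 2 left out 27.8% of all genes and 22 members were called. Higher were TNF, LIF, CSF1, CXCL1, CXCL10, the subunits NFKB2 and RELB and the IkB family members NFKBIE, NFKBIZ and BCL3. Lower were IL1B, CXCL8, CCL2, CCL3, CCL5, TNFRSF1B, TNFAIP8 and ICAM1.

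The C-body null construct gave 1 call, TNFAIP3, which was higher than in dTAG mCherry (2.56% of members called; 0.594% of all genes, with 0.216% higher and 0.378% lower). At an unadjusted p under 0.05 there were 8 members (20.5%, against 11.9% of all genes), and DESeq2 called 3, where it called 1.56% of the same 24064 genes. Log2 fold changes of the members ran from -0.83 to 0.62. The count of calls was 0 without dTAG C-body null replicate 1 or 2 or dTAG mCherry replicate 1, and 5 without dTAG mCherry replicate 2, when IL1RN (0.31), TNF (0.40) and NFKB2 (0.44) were also called higher and CXCL8 (-0.37) lower; with that library out, 5.70% of all genes were called. The share was 0.244% to 0.297% when any 1 C-body null library or dTAG mCherry replicate 1 was left out.

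Set directly against each other, the 2 add-back groups differed in 17 members (43.6%), 9 higher and 8 lower with FL-NPM1c, where 9.68% of all genes were called (4.82% higher, 4.86% lower). In this comparison, which uses no dTAG mCherry library, CSF1, CXCL10, CD40, BCL3, NFKBIE, RELB, NFKBIZ, TNF and CXCL1 were higher with FL-NPM1c, and IL1B, TNFAIP8, CCL2, ICAM1, TNFAIP3, TNFRSF1B, IER3 and IL1RN were lower. The ranges of the 3 libraries did not overlap for 27 of the 39 members (69.2%), against 35.1% of all genes. With FL-NPM1c replicate 1 or 2 left out, 6.15% or 5.57% of all genes and 15 or 16 members were called. With C-body null replicate 1 or 2 left out, the values were 5.61% or 5.64% and 14 or 13 members.

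Against NTC DMSO, 19 members were higher and 4 lower in dTAG FL-NPM1c (59.0% of members; 27.9% of all genes, 14.6% higher and 13.3% lower), and 12 were higher and 5 lower in dTAG C-body null (43.6%; 26.6% of all genes, 14.1% higher and 12.4% lower). The median log2 fold change of the members was 0.45 in the first and 0.16 in the second. In the first, leaving out FL-NPM1c replicate 1 or 2 or NTC DMSO replicate 1 or 2 gave 18.3%, 18.2%, 17% and 17.5% of all genes called, with 19, 20, 20 and 19 members. Comparisons that share dTAG mCherry or NTC DMSO libraries share their error, so their values stand side by side here and are not counted as separate evidence. Over the 6 comparisons 28 members were called at least once (71.8%, against 46.3% of all genes) and 11 in none.

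The plot of fold changes by gene shows these counts member by member, in the order of the roles.

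**Figure D1:**
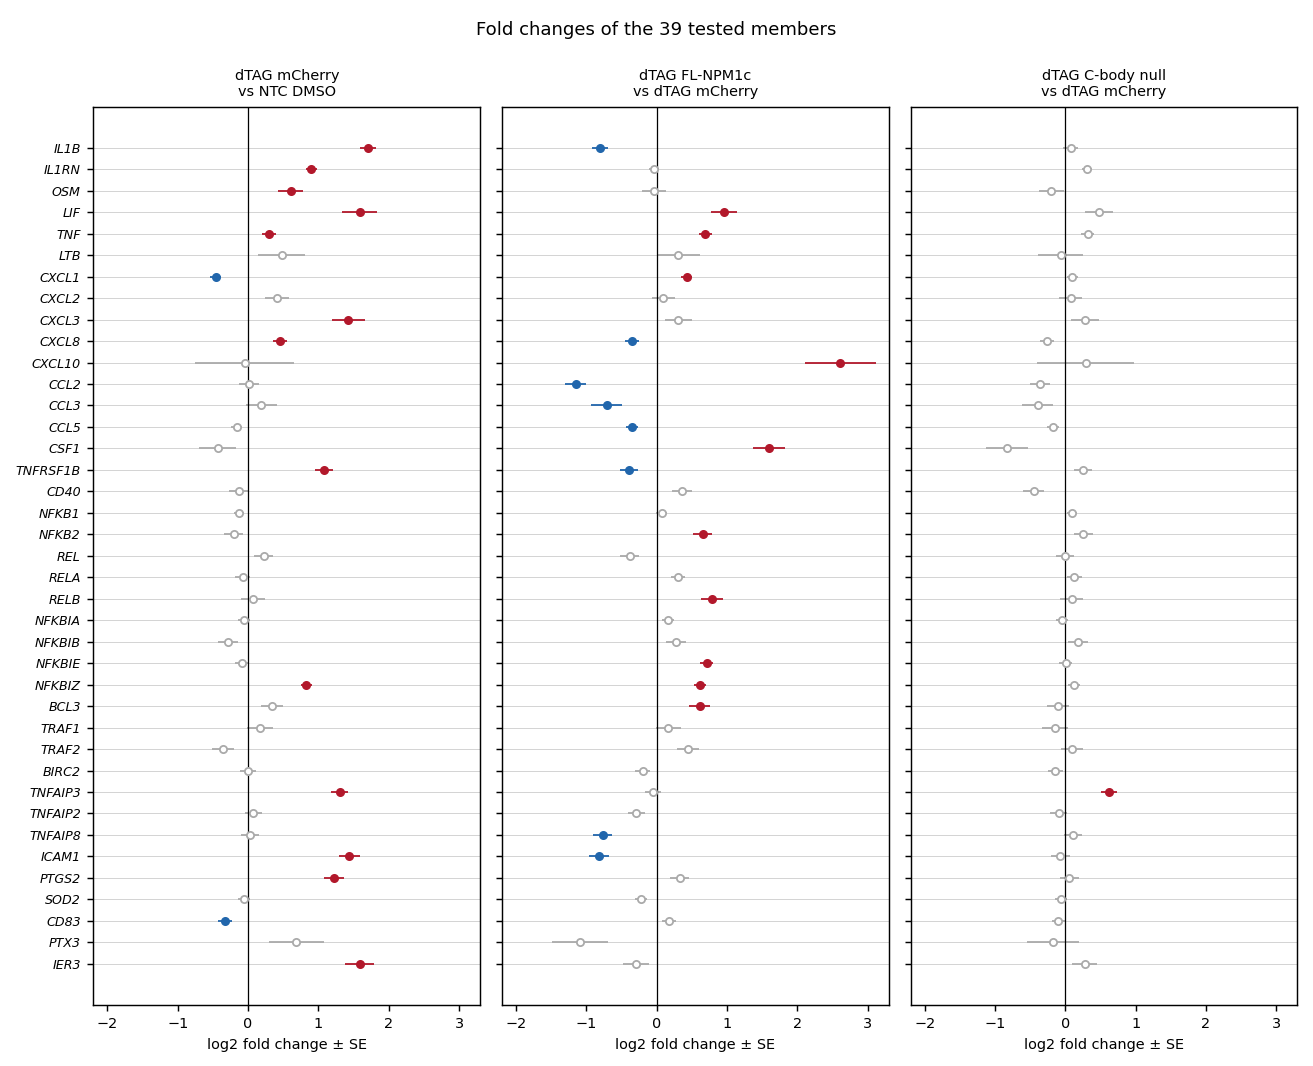
Log2 fold change with its standard error (horizontal axis) of each of the 39 tested members (vertical axis) in 3 comparisons that share the dTAG mCherry libraries; red points were called higher, blue lower, open grey points were not called. The left panel holds 13 red and 2 blue points, the middle one 10 red and 8 blue, and the right one a single red point, TNFAIP3.

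Among the ligands, IL1B encodes interleukin 1 beta, a fever-inducing cytokine made as a precursor that a protease must cut. IL1B stood at 42.6, 31.8 and 31.4 CPM in dTAG FL-NPM1c cells, 64.7, 62.6 and 68.2 in dTAG C-body null, 61.2, 55.9 and 68.5 in dTAG mCherry, and 18.8, 19.0 and 18.8 in NTC DMSO. The 3 groups on dTAG-13 lay above NTC DMSO in every library, and the FL-NPM1c libraries lay below all libraries of the other 2 drug-treated groups. IL1B rose by 1.71 ± 0.11 on the log2 scale (SE here and below) in dTAG mCherry against NTC DMSO (edgeR adjusted p = 1.6e-08); the rise in dTAG C-body null was 1.79 ± 0.11 (5.9e-09). With FL-NPM1c it was lower than in dTAG mCherry by -0.81 ± 0.11 (edgeR adjusted p = 0.00015) and lower than with C-body null by -0.89 ± 0.11 (4.7e-05), yet still above NTC DMSO (0.90 ± 0.11, 2.6e-05).

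IL1RN, the receptor antagonist that occupies the interleukin 1 receptor without signalling, had 49.3, 49.2 and 46.0 CPM in dTAG FL-NPM1c cells, 62.1, 58.2 and 63.1 in dTAG C-body null, 48.0, 49.8 and 50.6 in dTAG mCherry, and 26.4, 25.0 and 28.2 in NTC DMSO. It rose with the agonist in dTAG mCherry against NTC DMSO (0.90 ± 0.08, edgeR adjusted p = 2.9e-07), but the FL-NPM1c and mCherry libraries overlapped (-0.04 ± 0.08, adjusted p = 0.76). It was lower with FL-NPM1c than with C-body null (-0.34 ± 0.08, edgeR adjusted p = 0.0072). IL1A, which encodes the other agonist and lies 45.2 kb from IL1B on chromosome 2, reached at most 0.193 CPM.

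LIF, a cytokine of the interleukin 6 family named for inhibiting growth of leukaemia cells in mice, had 2.27, 2.22 and 2.64 CPM in dTAG FL-NPM1c cells, 1.57, 1.62 and 1.91 in dTAG C-body null, 1.41, 1.37 and 0.835 in dTAG mCherry, and 0.322, 0.425 and 0.476 in NTC DMSO. The 4 groups did not overlap in that order. LIF rose by 1.58 ± 0.25 in dTAG mCherry against NTC DMSO (edgeR adjusted p = 0.00017), was higher again in dTAG FL-NPM1c than in dTAG mCherry (0.96 ± 0.19, 0.0035), and stood 2.54 ± 0.22 above NTC DMSO with FL-NPM1c (5.9e-07). Its exons overlap the antisense gene LIF-AS1, and since the strand setting of the counting is not given here, reads of both cannot be told apart.

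OSM (oncostatin M), a relative of LIF whose gene lies 15.98 kb away on chromosome 22, averaged 2.91 ± 0.52 CPM in dTAG FL-NPM1c, 2.58 ± 0.25 in dTAG C-body null, 2.96 ± 0.20 in dTAG mCherry and 1.96 ± 0.44 in NTC DMSO (SD, n = 3). It was called higher in dTAG mCherry than in NTC DMSO (0.61 ± 0.18, edgeR adjusted p = 0.022). That call was lost without dTAG mCherry replicate 1 or 2 (0.58 in both cases) or NTC DMSO replicate 1 (0.58) or 2 (0.47). The call with FL-NPM1c against NTC DMSO (0.57 ± 0.18, edgeR adjusted p = 0.025) was lost without FL-NPM1c replicate 1 (0.49) or 2 (0.46) or NTC DMSO replicate 1 (0.54) or 2 (0.39). With C-body null OSM was called against NTC DMSO when NTC DMSO replicate 3 was left out (0.59).

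TNF, the founding ligand of its family, had 38.9, 35.2 and 35.3 CPM in dTAG FL-NPM1c cells, 27.2, 26.6 and 30.4 in dTAG C-body null, 21.4, 25.1 and 21.1 in dTAG mCherry, and 17.9, 17.5 and 19.6 in NTC DMSO. As with LIF, the groups followed that order without overlap, so the highest TNF level was in the group with the lower IL1B among the drug-treated cells. TNF was 0.69 ± 0.09 higher with FL-NPM1c than in dTAG mCherry (edgeR adjusted p = 0.00015) and 0.99 ± 0.09 above NTC DMSO (1.4e-06). Its increase in dTAG mCherry over NTC DMSO was small (0.30 ± 0.10, edgeR adjusted p = 0.032) and lost its call without dTAG mCherry replicate 2 (0.21) or NTC DMSO replicate 1 (0.28) or 2 (0.27). It also did so with the 2 groups fitted alone (0.31, adjusted p = 0.099) and with no low-count filter (0.27, 0.088). The difference of FL-NPM1c from C-body null (0.38 ± 0.09, edgeR adjusted p = 0.015) did so without FL-NPM1c replicate 1 (0.30) or C-body null replicate 1 (0.35) or 2 (0.31). LTB, which anchors lymphotoxin to the membrane and whose gene lies 2.19 kb from that of TNF on chromosome 6, ranged from 0.405 to 1.03 CPM and was not called. In dTAG FL-NPM1c against NTC DMSO it passed without NTC DMSO replicate 3 (1.10, edgeR adjusted p = 0.024), with the 2 groups alone (0.76, 0.039) and with no low-count filter (0.77, 0.035).

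CSF1, the growth factor on which monocytes and macrophages depend, had 1.98, 1.84 and 1.84 CPM in dTAG FL-NPM1c cells, 0.33, 0.43 and 0.286 in dTAG C-body null, 0.746, 0.729 and 0.334 in dTAG mCherry, and 0.744, 0.775 and 1.00 in NTC DMSO. All 3 FL-NPM1c libraries lay above the other 9. CSF1 was higher with FL-NPM1c than in dTAG mCherry (1.60 ± 0.23, edgeR adjusted p = 0.00028) and higher than with C-body null (2.43 ± 0.25, 8.7e-06), the largest difference of any member between the add-back groups. With C-body null it was below NTC DMSO (-1.26 ± 0.28, edgeR adjusted p = 0.0033).

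The CXC chemokines CXCL1, CXCL2, CXCL3 and CXCL8 attract neutrophils and share a stretch of chromosome 4. In dTAG mCherry against NTC DMSO the neighbours CXCL1 and CXCL3, whose genes lie 165 kb apart, moved in opposite directions. Their upstream sequences are shown because they carry the same kB letters at the same place. Both are RefSeq promoter windows of 300 bases (build GRCh38.p14), 250 before and 50 after the annotated start, written 5′ to 3′ on the strand of the gene, with capitals for matches to the kB consensus, the sequence to which NF-kB pairs bind. CXCL1 is chr4:73869143-73869442 on the plus strand and CXCL3 chr4:74038640-74038939 on the minus strand.
CXCL1: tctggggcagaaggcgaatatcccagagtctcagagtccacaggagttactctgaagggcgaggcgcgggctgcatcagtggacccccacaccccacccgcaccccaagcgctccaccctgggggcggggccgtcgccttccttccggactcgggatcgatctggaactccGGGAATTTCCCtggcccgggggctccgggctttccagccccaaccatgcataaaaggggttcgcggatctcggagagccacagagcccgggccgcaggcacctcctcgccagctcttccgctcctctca
CXCL3: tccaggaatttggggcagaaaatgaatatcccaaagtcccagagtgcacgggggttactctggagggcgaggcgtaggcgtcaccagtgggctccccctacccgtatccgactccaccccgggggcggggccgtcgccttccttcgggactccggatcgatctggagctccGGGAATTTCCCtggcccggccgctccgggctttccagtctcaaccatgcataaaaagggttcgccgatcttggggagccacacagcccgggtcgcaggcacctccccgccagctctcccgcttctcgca
The windows were identical at 206 of 300 positions (68.7%) when laid side by side without gaps, and in both the first base of the match lies at position -79 from the start.

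CXCL3 had 2.77, 2.01 and 2.02 CPM in dTAG FL-NPM1c cells, 2.56, 1.62 and 2.45 in dTAG C-body null, 2.02, 1.72 and 1.74 in dTAG mCherry, and 0.843, 0.55 and 0.634 in NTC DMSO. All 9 libraries on dTAG-13 lay above NTC DMSO, and the 3 drug-treated groups overlapped one another. CXCL3 rose by 1.42 ± 0.24 in dTAG mCherry against NTC DMSO (edgeR adjusted p = 0.00032), by 1.73 ± 0.23 with FL-NPM1c (4.2e-05) and by 1.70 ± 0.23 with C-body null (3.4e-05).

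CXCL1 went the other way in dTAG mCherry, at 32.3 ± 1.34 CPM against 44.4 ± 2.66 in NTC DMSO (SD, n = 3), a change of -0.46 ± 0.08 (edgeR adjusted p = 0.0003). With FL-NPM1c it averaged 43.4 ± 0.59 CPM, higher than in dTAG mCherry by 0.43 ± 0.08 (edgeR adjusted p = 0.0015), and its libraries overlapped NTC DMSO (-0.03 ± 0.07, adjusted p = 0.78). With C-body null it averaged 34.6 ± 0.78 CPM, which was lower than NTC DMSO (-0.36 ± 0.08, edgeR adjusted p = 0.0018). FL-NPM1c exceeded C-body null by 0.33 ± 0.08 (edgeR adjusted p = 0.0098), and this call was lost without FL-NPM1c replicate 1 (0.29) or C-body null replicate 2 (0.28). CXCL2 averaged 1.86 ± 0.12 CPM with FL-NPM1c, 1.84 ± 0.28 with C-body null, 1.74 ± 0.18 in dTAG mCherry and 1.31 ± 0.12 in NTC DMSO. Its call with FL-NPM1c against NTC DMSO (0.50 ± 0.16, edgeR adjusted p = 0.031) was lost with DESeq2 (0.48, 0.088), with no low-count filter (0.48, 0.11) and without any 1 of the 6 libraries compared (0.40 to 0.56). Its call with C-body null against NTC DMSO (0.49 ± 0.17, edgeR adjusted p = 0.041) was lost with DESeq2 (0.48, 0.11), with no low-count filter (0.47, 0.13) and with the 2 groups alone (0.49, 0.060). It was also lost without C-body null replicate 2 or 3 (0.42 in both cases) and without NTC DMSO replicate 1 (0.55), 2 (0.41) or 3 (0.51). CXCL1, CXCL2 and CXCL3 resemble one another in sequence, and how reads that map to several genes were counted is not given, so their levels are uncertain.

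CXCL8 (interleukin 8) had the highest level per length among members with a known exon length in the 3 drug-treated groups, at 81.9 CPM per kb of exon with FL-NPM1c, 87.2 with C-body null and 104.5 in dTAG mCherry, while in NTC DMSO its 76.3 CPM per kb came after the 81.9 of CCL5. It averaged 237.7 ± 32.3 CPM in dTAG mCherry against 173.6 ± 18.9 in NTC DMSO (SD, n = 3) and was called higher (0.45 ± 0.10, edgeR adjusted p = 0.0034). With FL-NPM1c it averaged 186.2 ± 13.7 CPM, lower than in dTAG mCherry (-0.35 ± 0.10, edgeR adjusted p = 0.027), although the libraries of these groups overlapped. That call was lost without FL-NPM1c replicate 2 or 3 (-0.32 in both cases) or dTAG mCherry replicate 1 (-0.35) or 3 (-0.27), and with the 2 groups alone (-0.35, adjusted p = 0.054).

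CXCL10, an interferon-inducible chemokine that attracts T cells through CXCR3, was sparse but distinct: 0.566, 0.373 and 0.722 CPM in dTAG FL-NPM1c cells, 0.11, 0.152 and 0.0715 in dTAG C-body null, 0.138, 0.0214 and 0.134 in dTAG mCherry, and 0.149, 0.10 and 0.0264 in NTC DMSO. These levels rest on 1 to 44 counts a library. Every FL-NPM1c library exceeded the other 9, and the other 3 groups overlapped. CXCL10 passed the low-count filter only through its FL-NPM1c libraries, so a high level there was a condition of its being tested. The difference was 2.61 ± 0.50 from dTAG mCherry (edgeR adjusted p = 0.0028) and 2.32 ± 0.47 from C-body null (0.0043). The other CXCR3 ligands, CXCL9 and CXCL11, were also called higher with FL-NPM1c than in dTAG mCherry. CXCL9 averaged 0.949 CPM against 0.155 (2.56 ± 0.31, edgeR adjusted p = 5.8e-05), and CXCL11 averaged 1.89 CPM against 0.601 (1.67 ± 0.25, 0.00042). CXCL9 averaged just 0.118 CPM with C-body null and 0.136 in NTC DMSO. Its passing the low-count filter may likewise have depended on its FL-NPM1c libraries.

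Of the CC chemokines, CCL2, which draws monocytes through CCR2, had 1.98, 1.33 and 1.87 CPM in dTAG FL-NPM1c cells, 2.97, 2.81 and 3.22 in dTAG C-body null, 4.12, 3.67 and 3.81 in dTAG mCherry, and 3.87, 3.98 and 3.59 in NTC DMSO. The FL-NPM1c libraries were the lowest 3 of 12, and those of dTAG mCherry and NTC DMSO overlapped. CCL2 was lower with FL-NPM1c than in dTAG mCherry (-1.15 ± 0.15, edgeR adjusted p = 9.8e-05), C-body null (-0.79 ± 0.15, 0.0026) and NTC DMSO (-1.13 ± 0.15, 4.2e-05).

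CCL5 (RANTES), a chemokine that attracts T cells and monocytes, averaged 86.7 ± 2.57 CPM with FL-NPM1c, 98.1 ± 8.66 with C-body null, 110.5 ± 5.31 in dTAG mCherry and 123.9 ± 10.5 in NTC DMSO (SD, n = 3). It was lower with FL-NPM1c than in dTAG mCherry (-0.35 ± 0.08, edgeR adjusted p = 0.011) and than in NTC DMSO (-0.51 ± 0.08, 0.00031). The first call was lost without FL-NPM1c replicate 2 (-0.34, edgeR adjusted p = 0.052). CCL5 was also called lower with C-body null than in NTC DMSO (-0.41 to -0.27 over the alternative fits). FL-NPM1c against C-body null was not called. CCL3, a chemokine made by activated macrophages, averaged 1.10 ± 0.20 CPM with FL-NPM1c and 1.77 ± 0.31 in dTAG mCherry (-0.71 ± 0.22, edgeR adjusted p = 0.038). The call was lost without FL-NPM1c replicate 2 (-0.64) or 3 (-0.63) or dTAG mCherry replicate 1 (-0.79) or 2 (-0.55), and a call against NTC DMSO appeared without NTC DMSO replicate 1 (-0.71). The near-identical copy CCL3L3 was listed at 3.71 to 5.88 CPM, so the share of reads that belongs to CCL3 is uncertain.

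**Figure D2:**
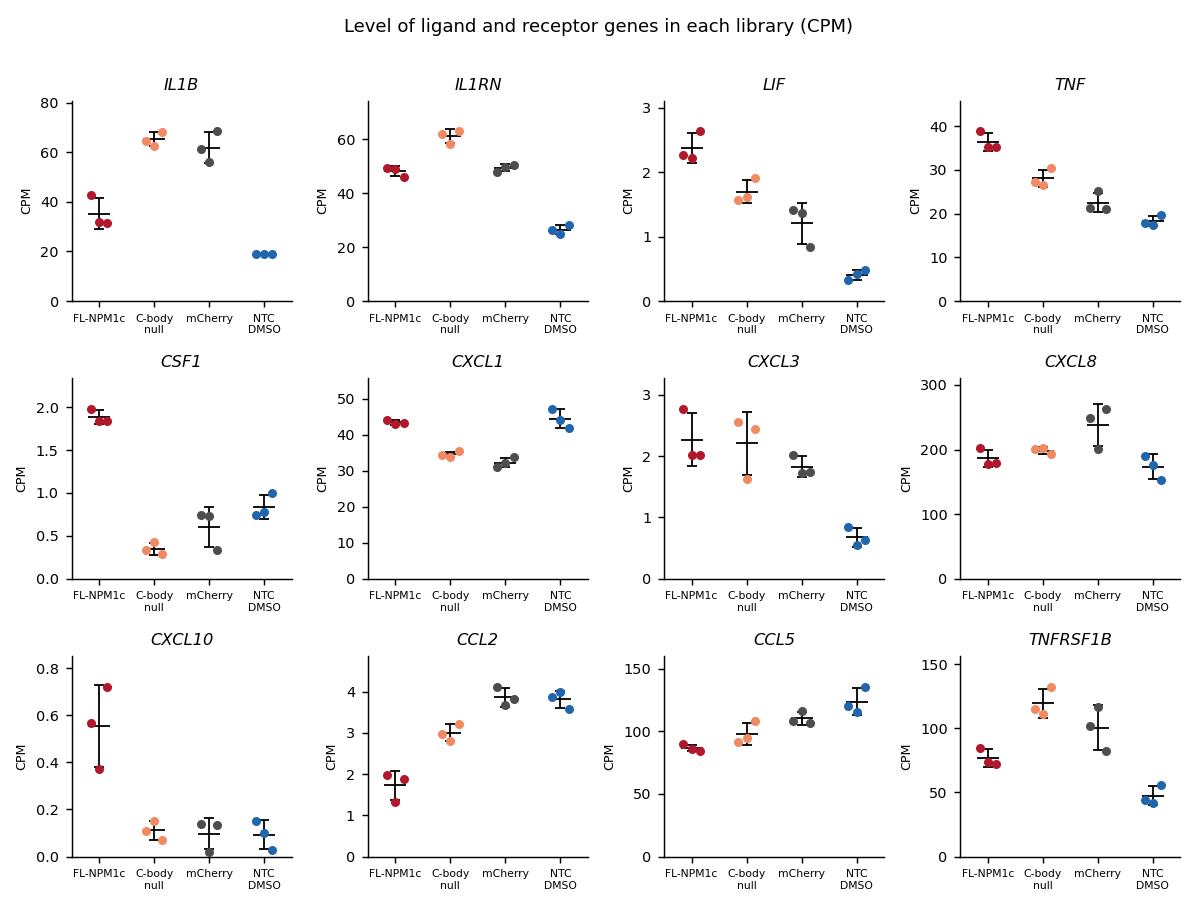
Level (CPM, vertical axis from 0) of 11 ligand genes and the receptor gene TNFRSF1B in each library (points), with the mean and SD of the 3 libraries of a group (black). IL1B and CCL2 are lower with FL-NPM1c than with C-body null or mCherry alone, while TNF, CSF1 and CXCL10 are highest there.

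TNFRSF1B, which encodes the TNF receptor found mainly on immune cells, had 84.7, 73.5 and 72.1 CPM in dTAG FL-NPM1c cells, 115.3, 111.2 and 132.5 in dTAG C-body null, 101.9, 117.0 and 82.1 in dTAG mCherry, and 44.3, 41.9 and 56.1 in NTC DMSO. All drug-treated libraries lay above NTC DMSO. It rose by 1.08 ± 0.13 in dTAG mCherry against NTC DMSO (edgeR adjusted p = 1.2e-05), while C-body null exceeded NTC DMSO by 1.34 ± 0.13 (9e-07) and FL-NPM1c lay below C-body null (-0.64 ± 0.13, 0.0035). Its difference between FL-NPM1c and dTAG mCherry (-0.39 ± 0.13, edgeR adjusted p = 0.049) came from overlapping libraries. It was lost under RLE scaling (adjusted p = 0.052), under library totals alone (0.071), with the 2 groups alone (0.064) and without FL-NPM1c replicate 2 (-0.36) or 3 (-0.34) or dTAG mCherry replicate 1 (-0.40) or 2 (-0.26). CD40, a receptor through which T cells activate myeloid cells, averaged 4.70 ± 0.41 CPM in FL-NPM1c cells and 2.68 ± 0.31 with C-body null (0.81 ± 0.15, edgeR adjusted p = 0.0016). C-body null was also below the 4.02 ± 0.54 CPM of NTC DMSO (-0.58 ± 0.15, edgeR adjusted p = 0.0083).

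The subunits of the classical pathway, NFKB1, RELA and REL, were not called in any comparison by the edgeR fit reported here, though RELA and REL passed in some other fits. NFKB1, which gives the p50 subunit, spanned 58.2 to 70.2 CPM over all 12 libraries, and its log2 fold changes were -0.13 ± 0.07 in dTAG mCherry against NTC DMSO and 0.07 ± 0.07 with FL-NPM1c against dTAG mCherry. RELA, which gives p65, had 52.1, 51.8 and 48.1 CPM in FL-NPM1c cells, 42.7, 42.7 and 48.9 with C-body null, 39.6, 46.6 and 36.7 in dTAG mCherry, and 39.7, 40.6 and 49.3 in NTC DMSO. Its FL-NPM1c libraries lay above those of dTAG mCherry but overlapped the other 2 groups (FL-NPM1c against dTAG mCherry 0.30 ± 0.10, edgeR adjusted p = 0.058). RELA passed with DESeq2 (0.31, adjusted p = 0.030), with no low-count filter (0.31, 0.021) and without dTAG mCherry replicate 2 (0.41, 0.0079), and against NTC DMSO without NTC DMSO replicate 3 (0.33, 0.020). REL, which gives c-Rel, averaged 25.6 ± 3.56 CPM with FL-NPM1c and 33.4 ± 3.24 in dTAG mCherry (-0.38 ± 0.13, edgeR adjusted p = 0.061). REL passed in that comparison with DESeq2 (-0.38, 0.039), with no low-count filter (-0.37, 0.0074) and without FL-NPM1c replicate 3 (-0.50) or dTAG mCherry replicate 1 (-0.49). Against C-body null it passed with DESeq2 (-0.39, 0.045), with no low-count filter (-0.38, 0.0072) and without FL-NPM1c replicate 3 (-0.50) or C-body null replicate 3 (-0.56). With C-body null against NTC DMSO it passed without C-body null replicate 3 (0.36).

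The subunits of the slower, non-canonical branch were higher with FL-NPM1c than in dTAG mCherry and NTC DMSO. NFKB2, the source of p52, averaged 14.3 ± 0.66 CPM with FL-NPM1c, 10.8 ± 0.58 with C-body null, 9.00 ± 1.98 in dTAG mCherry and 10.4 ± 1.48 in NTC DMSO (SD, n = 3). It was higher with FL-NPM1c than in dTAG mCherry by 0.66 ± 0.14 (edgeR adjusted p = 0.0046), and without dTAG mCherry replicate 2 it was also lower in dTAG mCherry than in NTC DMSO (-0.39, 0.034). Against C-body null NFKB2 was not called (0.40 ± 0.13, edgeR adjusted p = 0.072). It passed with the 2 groups alone (0.40, 0.0041) and with no low-count filter (0.40, 0.024). RELB, the partner of p52, averaged 5.60 ± 0.56 CPM with FL-NPM1c, 3.43 ± 0.49 with C-body null, 3.22 ± 0.67 in dTAG mCherry and 3.09 ± 0.46 in NTC DMSO. RELB was higher with FL-NPM1c than in dTAG mCherry (0.79 ± 0.16, edgeR adjusted p = 0.0044), NTC DMSO (0.86 ± 0.16, 0.001) and C-body null (0.70 ± 0.16, 0.0093). The last of these calls ended without C-body null replicate 1 (0.65) or 2 (0.60). NFKB2 against NTC DMSO (0.45 ± 0.13, edgeR adjusted p = 0.019) lost its call without FL-NPM1c replicate 1 (0.39) or NTC DMSO replicate 1 (0.39) or 2 (0.37).

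Of the 5 IkB family members, 2 were not called in any comparison and 3 were higher with FL-NPM1c than in dTAG mCherry, C-body null and NTC DMSO alike. NFKBIA, which encodes IkB alpha and is a standard early target of the pathway, had 29.1, 30.4 and 28.8 CPM in FL-NPM1c cells, 24.6, 24.1 and 27.5 with C-body null, 26.5, 26.7 and 25.9 in dTAG mCherry, and 29.5, 25.2 and 27.7 in NTC DMSO. It was not called in any of the 6 comparisons, and the lowest FL-NPM1c library lay above the highest of dTAG mCherry by a small margin (0.16 ± 0.08, edgeR adjusted p = 0.22). NFKBIB, a second cytoplasmic inhibitor, ranged from 9.96 to 17.2 CPM and was not called either; without dTAG mCherry replicate 2 it passed for dTAG mCherry against NTC DMSO (-0.44) and FL-NPM1c against dTAG mCherry (0.42). NFKBIE, which encodes IkB epsilon, averaged 50.2 ± 1.33 CPM with FL-NPM1c, 30.8 ± 2.69 with C-body null, 30.6 ± 3.04 in dTAG mCherry and 32.7 ± 2.38 in NTC DMSO. NFKBIE was higher with FL-NPM1c by 0.71 ± 0.09 against both dTAG mCherry (edgeR adjusted p = 0.00011) and C-body null (9.3e-05). BCL3, a nuclear IkB protein that binds p50 and p52, averaged 6.48 ± 0.70 CPM with FL-NPM1c, 3.92 ± 0.79 with C-body null, 4.22 ± 0.49 in dTAG mCherry and 3.34 ± 0.39 in NTC DMSO. BCL3 exceeded C-body null by 0.72 ± 0.15 (edgeR adjusted p = 0.0052) and dTAG mCherry by 0.61 ± 0.15 (0.013), the second of which was lost without FL-NPM1c replicate 1 (0.54) or 2 (0.56) or dTAG mCherry replicate 3 (0.53).

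NFKBIZ, which encodes the nuclear co-activator IkB zeta, and TNFAIP3, which encodes the ubiquitin-editing inhibitor A20, both hold kB letters in their promoter windows and are shown because they rose in every group on dTAG-13 but parted between the add-back constructs. The windows are as above, NFKBIZ at chr3:101827740-101828039 and TNFAIP3 at chr6:137867009-137867308, both on the plus strand of GRCh38.p14, with matches in capitals.
NFKBIZ: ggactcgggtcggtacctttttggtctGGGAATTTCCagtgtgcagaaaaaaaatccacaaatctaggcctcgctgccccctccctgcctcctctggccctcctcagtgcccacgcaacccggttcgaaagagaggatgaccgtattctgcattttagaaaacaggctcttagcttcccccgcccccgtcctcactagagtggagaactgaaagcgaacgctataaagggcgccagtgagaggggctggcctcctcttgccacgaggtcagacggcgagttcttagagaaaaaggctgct
TNFAIP3: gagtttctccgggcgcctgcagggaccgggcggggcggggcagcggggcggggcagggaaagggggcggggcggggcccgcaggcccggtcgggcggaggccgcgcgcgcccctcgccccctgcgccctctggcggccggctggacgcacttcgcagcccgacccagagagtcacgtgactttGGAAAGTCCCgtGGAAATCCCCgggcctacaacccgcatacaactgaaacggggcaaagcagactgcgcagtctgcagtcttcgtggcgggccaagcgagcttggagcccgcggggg
The match of NFKBIZ begins at position -223 and those of TNFAIP3 at -67 and -55 from the annotated start.

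NFKBIZ had 59.1, 61.0 and 64.7 CPM in dTAG FL-NPM1c cells, 43.4, 44.2 and 43.8 in dTAG C-body null, 35.6, 43.5 and 41.3 in dTAG mCherry, and 22.6, 22.7 and 22.5 in NTC DMSO. The FL-NPM1c libraries were the highest and those of NTC DMSO the lowest, with no overlap with any other group. It rose by 0.83 ± 0.08 in dTAG mCherry against NTC DMSO (edgeR adjusted p = 1.9e-06), and FL-NPM1c exceeded dTAG mCherry by 0.62 ± 0.08 (0.00013), C-body null by 0.49 ± 0.08 (0.00078) and NTC DMSO by 1.45 ± 0.08 (4.2e-09).

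TNFAIP3 had 7.10, 6.41 and 6.99 CPM in dTAG FL-NPM1c cells, 11.5, 11.0 and 10.2 in dTAG C-body null, 6.71, 6.95 and 7.62 in dTAG mCherry, and 3.32, 2.65 and 2.62 in NTC DMSO. Here the C-body null libraries were the highest, and FL-NPM1c overlapped dTAG mCherry. TNFAIP3 rose by 1.30 ± 0.12 in dTAG mCherry against NTC DMSO (edgeR adjusted p = 7.2e-07) and was 0.62 ± 0.11 higher with C-body null than in dTAG mCherry (0.011). The second of these calls was lost without C-body null replicate 1 (0.58) or 2 (0.60) or dTAG mCherry replicate 1 (0.58). FL-NPM1c was lower than C-body null by -0.67 ± 0.11 (edgeR adjusted p = 0.00062). Its exons overlap an antisense transcript, so its level is uncertain in the same way as that of LIF.

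The adaptors TRAF1 and TRAF2 and the ubiquitin ligase BIRC2, which sit at TNF receptors, were not called in any comparison by the edgeR fit reported here, at 1.29 to 2.31, 12.6 to 27.2 and 29.4 to 39.2 CPM over the 12 libraries. TRAF2 passed in dTAG mCherry against NTC DMSO without dTAG mCherry replicate 2 (-0.53, edgeR adjusted p = 0.019) and with no low-count filter (-0.38, 0.0064). With FL-NPM1c against dTAG mCherry it passed without the same library (0.61, 0.0086), with DESeq2 (0.45, 0.032) and with no low-count filter (0.45, 0.0013). Against C-body null it passed with the 2 groups alone (0.35, 0.0077) and with no low-count filter (0.35, 0.026).

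**Figure D3:**
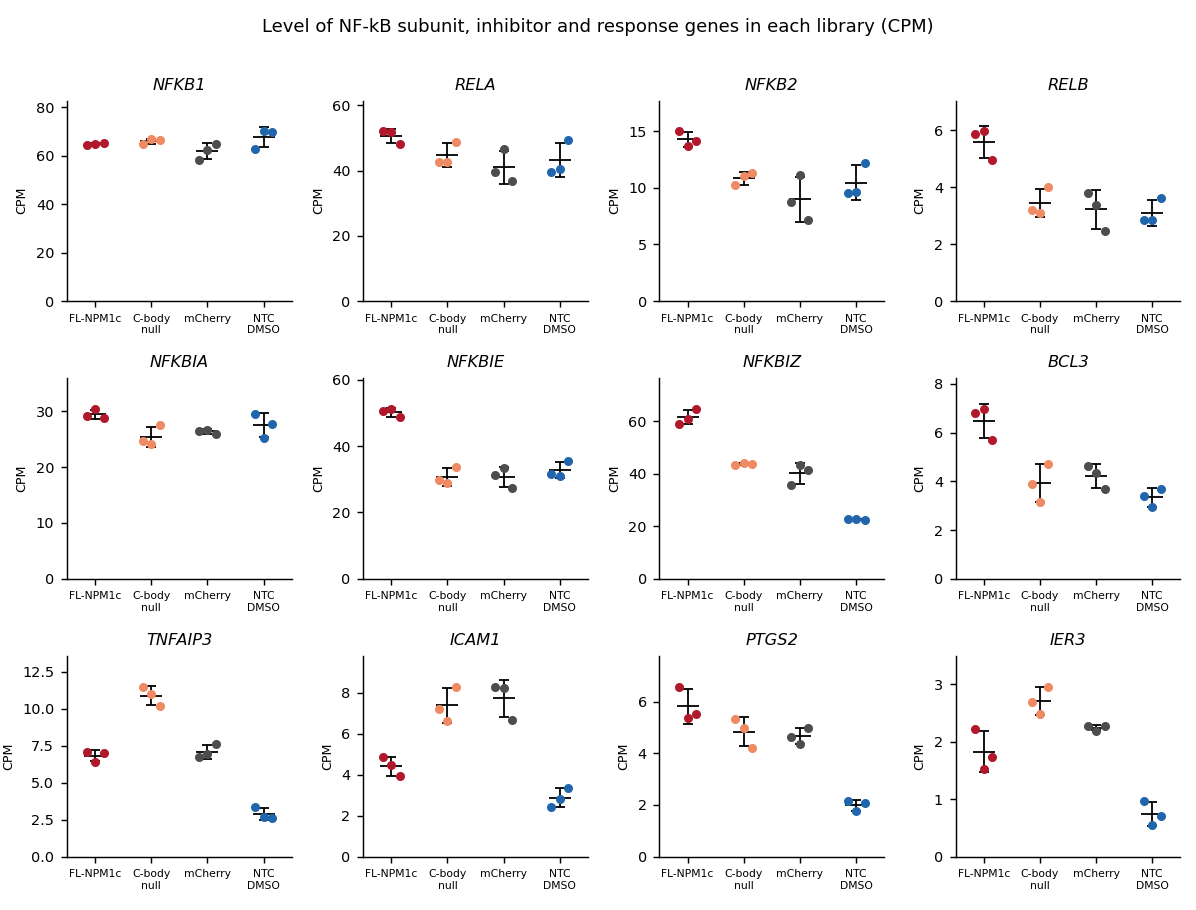
Level (CPM, vertical axis from 0) of 12 genes for NF-kB subunits, inhibitors and response genes in each library (points), with the mean and SD of each group's 3 libraries (black). NFKB1 spans 58.2 to 70.2 CPM and NFKBIA 24.1 to 30.4 CPM over the 12 libraries, NFKB2, RELB, NFKBIE, NFKBIZ and BCL3 are highest with FL-NPM1c, and TNFAIP3 is highest with C-body null.

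Among the response genes, ICAM1, the adhesion molecule that leukocyte integrins bind, had 4.84, 4.45 and 3.92 CPM in dTAG FL-NPM1c cells, 7.20, 6.63 and 8.29 in dTAG C-body null, 8.26, 8.23 and 6.68 in dTAG mCherry, and 2.43, 2.80 and 3.36 in NTC DMSO. FL-NPM1c lay between NTC DMSO and the other 2 groups, overlapping neither. ICAM1 rose by 1.44 ± 0.15 in dTAG mCherry against NTC DMSO (edgeR adjusted p = 1.9e-06). It was lower with FL-NPM1c than in dTAG mCherry (-0.82 ± 0.14, edgeR adjusted p = 0.001) or with C-body null (-0.75 ± 0.14, 0.0019). Antisense transcripts overlap its exons, so its level is uncertain in the same way as that of LIF.

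PTGS2, the inducible cyclooxygenase of prostaglandin synthesis, had 6.58, 5.36 and 5.51 CPM in dTAG FL-NPM1c cells, 5.33, 4.96 and 4.22 in dTAG C-body null, 4.64, 4.35 and 4.98 in dTAG mCherry, and 2.16, 1.75 and 2.06 in NTC DMSO. All 9 libraries on dTAG-13 lay above NTC DMSO. PTGS2 rose against NTC DMSO by 1.55 ± 0.14 with FL-NPM1c (edgeR adjusted p = 7.8e-07), 1.28 ± 0.14 with C-body null (4e-06) and 1.22 ± 0.14 with mCherry alone (9.4e-06), and no difference among the 3 drug-treated groups was called. FL-NPM1c minus dTAG mCherry was 0.32 ± 0.13 (edgeR adjusted p = 0.097).

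IER3, an early response gene that acts on cell survival, had 2.22, 1.52 and 1.74 CPM in dTAG FL-NPM1c cells, 2.69, 2.48 and 2.96 in dTAG C-body null, 2.27, 2.19 and 2.27 in dTAG mCherry, and 0.967, 0.55 and 0.713 in NTC DMSO. Every drug-treated library lay above NTC DMSO, by 1.58 ± 0.21 in dTAG mCherry (edgeR adjusted p = 3e-05). The difference between FL-NPM1c and C-body null (-0.57 ± 0.17) was at the threshold (edgeR adjusted p = 0.050) and was lost with library totals alone (-0.56, 0.053) and without any 1 of 5 of the 6 libraries compared, with values of -0.46 to -0.66. The antisense gene IER3-AS1 overlaps its exons.

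TNFAIP8, which encodes a TNF-inducible protein that limits cell death, was called lower with FL-NPM1c in all 3 comparisons of that group. It averaged 33.4 ± 3.19 CPM with FL-NPM1c, 61.2 ± 4.74 with C-body null, 57.0 ± 4.93 in dTAG mCherry and 55.9 ± 12.6 in NTC DMSO (SD, n = 3). It was lower with FL-NPM1c than in dTAG mCherry (-0.77 ± 0.13, edgeR adjusted p = 0.0012), C-body null (-0.87 ± 0.13, 0.00035) and NTC DMSO (-0.74 ± 0.13, 0.00068), while dTAG mCherry and NTC DMSO overlapped (0.03 ± 0.13).

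CD83, a surface protein of activated antigen-presenting cells, was the second member that fell in dTAG mCherry against NTC DMSO, at 17.2 ± 2.10 CPM against 21.5 ± 0.90 (-0.33 ± 0.10, edgeR adjusted p = 0.022). This call was lost without dTAG mCherry replicate 2 (-0.23) or NTC DMSO replicate 1 (-0.29) or 2 (-0.34), and with the 2 groups alone (-0.31, adjusted p = 0.12). With FL-NPM1c it passed as higher than with C-body null in the fit of the 2 groups alone (0.28, 0.019). With C-body null it was at 16.04 ± 0.38 CPM and below NTC DMSO (-0.42 ± 0.10, edgeR adjusted p = 0.0034). SOD2, the mitochondrial superoxide dismutase, ranged from 75.0 to 101.6 CPM, and its 1 call (FL-NPM1c against NTC DMSO, -0.28 ± 0.09, edgeR adjusted p = 0.024) was lost without FL-NPM1c replicate 1 (-0.30) or 2 (-0.25) or NTC DMSO replicate 1 (-0.22) or 2 (-0.27). TNFAIP2 and PTX3, a soluble pattern-recognition protein, were not called, and PTX3 had 4 to 14 counts a library. With no low-count filter TNFAIP2 passed for FL-NPM1c against dTAG mCherry (-0.28, adjusted p = 0.048). Without dTAG mCherry replicate 2, PTX3 (-1.37), SOD2 (-0.26) and BIRC2 (-0.30) passed as lower with FL-NPM1c than in dTAG mCherry. Without NTC DMSO replicate 3, BIRC2 passed for FL-NPM1c (-0.29) and SOD2 for C-body null (-0.22) against NTC DMSO.

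**Figure D4:**
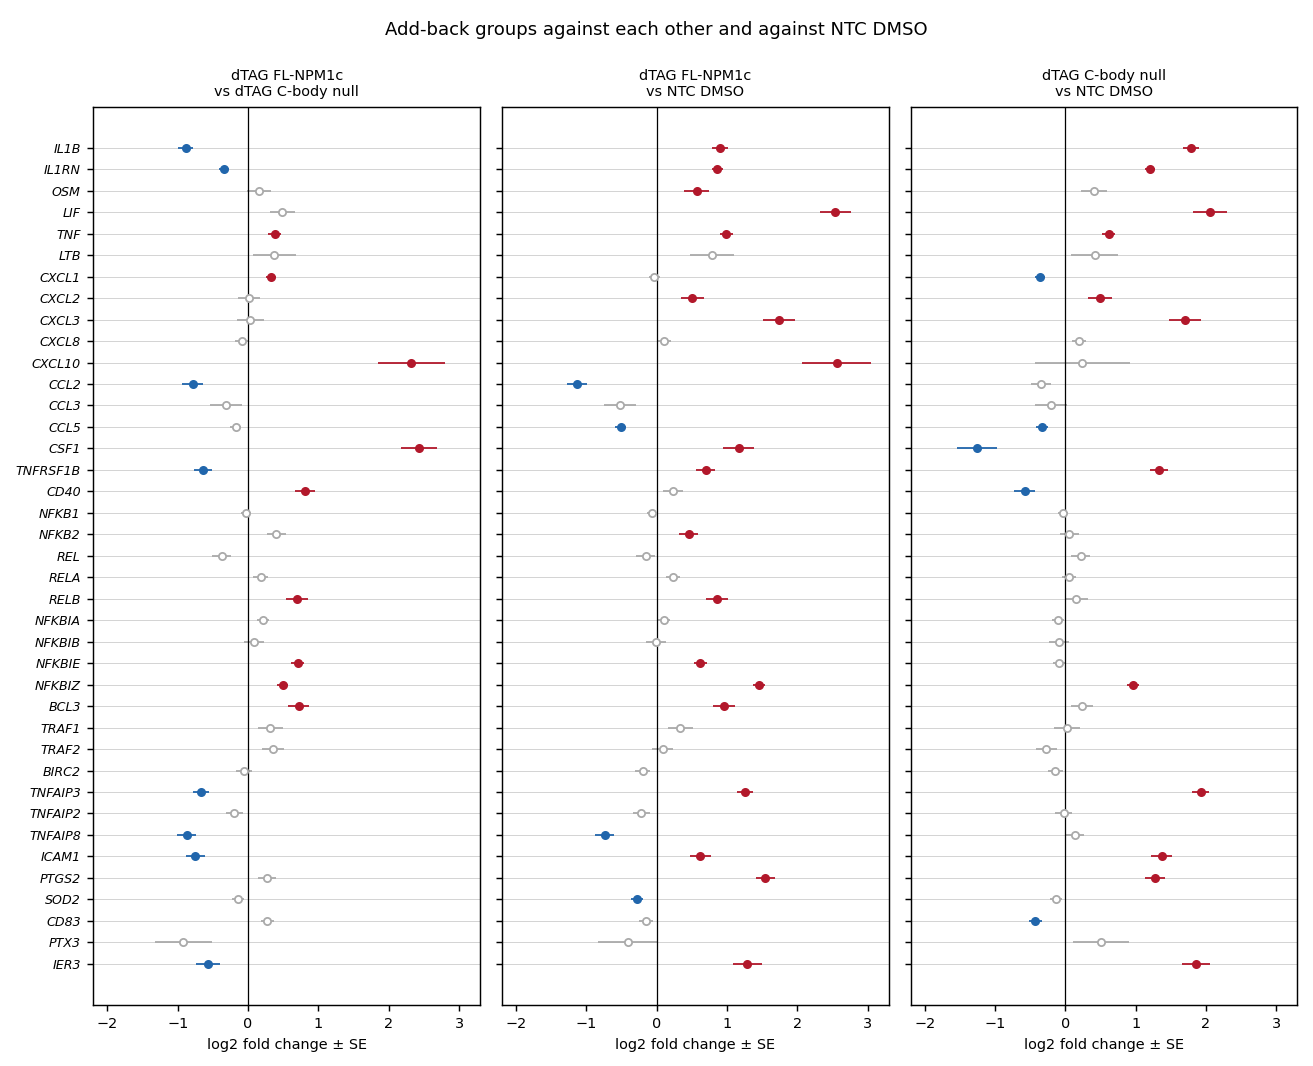
Log2 fold change with its standard error (horizontal axis) of the 39 tested members (vertical axis) for FL-NPM1c against C-body null and for each add-back group against NTC DMSO; red points were called higher, blue lower, open grey points were not called. CSF1 and CXCL10 lie farthest to the right in the left panel, and IL1B, TNFAIP8 and CCL2 farthest to the left among its called genes.

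The members were searched for the kB consensus, 10 letters long, on both strands of the RefSeq windows. A match is a description of letters and not of binding, and where a gene has several starts the window with most matches was kept. Windows were found for 34 of the 44 members and 18 of these held a match (52.9%), against 7.09% of 27305 genes and 5.91% of 35116 windows overall. Counted by window, 21 of 55 member windows held one (38.2%).

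Among members with a window that were higher with FL-NPM1c than in dTAG mCherry, 5 of 6 held a match (CXCL1, CXCL10, NFKB2, NFKBIZ and BCL3, but not TNF), against 0 of 6 that were lower and 10 of 18 that were not called. CXCL10 was tested only through its FL-NPM1c libraries. No window was found for LIF, CSF1, RELB and NFKBIE, also higher, or for CCL2 and CCL5, also lower. In dTAG mCherry against NTC DMSO the count was 3 of 10 members that rose, 2 of 2 that fell (CXCL1 and CD83) and 10 of 18 not called. These counts are small, carry no test, and say only whether these letters stand in this window. In NFKB2 the matches read GGGAATTCCC at position -107 and GGGGCTTTCC at -78, in CXCL10 GGGAAATTCC at -177 and GGGACTTCCC at -122, and in BCL3 GGGAAGTCCC at position 3.

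**Figure D5:**
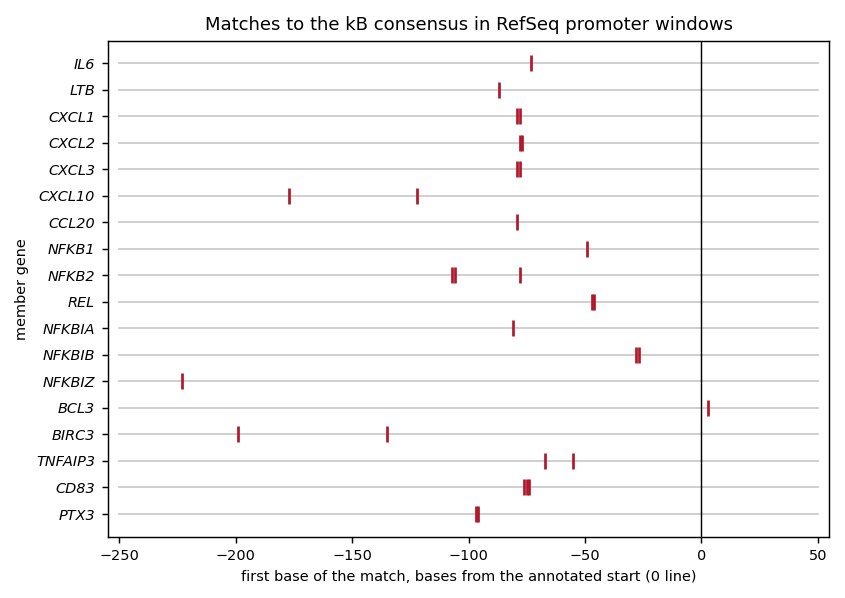
Position of matches to the kB consensus (red ticks, in bases from the annotated start at the black line, window from -250 to 50) in the 18 member genes that hold one. The first base lies between 110 and 40 bases before the start in 13 of the 18 genes, a range set after seeing the positions, and NFKBIZ lies farthest out at -223.

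The lists of other pathway genes were drawn up with earlier results of these data known. Of 28 tested kinases and adaptors of the pathway, 4 rose and 4 fell in dTAG mCherry against NTC DMSO (28.6%, against 22.6% of all genes; median log2 change 0.03), and 3 were higher and 2 lower with FL-NPM1c against dTAG mCherry (17.9%, against 15.5%). Both shares lay near those of all genes. NOD2, a sensor of bacterial cell walls (0.59 ± 0.14, edgeR adjusted p = 0.0065), and IRAK2, a kinase of interleukin 1 signalling (0.56 ± 0.15, 0.011), rose most in the first of these comparisons, and the adaptor TRAF5 fell most (-0.94 ± 0.14). Of 18 negative regulators 3 rose and 2 fell in dTAG mCherry against NTC DMSO, and 2 were higher and 1 lower with FL-NPM1c against dTAG mCherry. These shares, 27.8% against 22.6% and 16.7% against 15.5% of all genes, also lay near the background. The lower gene was IRAK3, a brake on Toll-like and interleukin 1 receptors, at 108.2 CPM with FL-NPM1c against 160.5 in dTAG mCherry (-0.57 ± 0.09, edgeR adjusted p = 0.00071). C-body null against dTAG mCherry called no gene of either list.

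Of 14 tested receptors for the members' ligands, 6 rose and 0 fell in dTAG mCherry against NTC DMSO (42.9% higher, against 12.9% of all genes). They were led by the CSF1 receptor CSF1R, at 22.5 CPM against 1.62 (3.80 ± 0.15), and by CCR2, the receptor of CCL2, at 27.1 CPM against 11.1 (1.29 ± 0.09). With FL-NPM1c 1 was higher than in dTAG mCherry, LIFR, the receptor of LIF, at 1.25 CPM against 0.712 (0.79 ± 0.23, edgeR adjusted p = 0.029). In that comparison 5 were lower (35.7%, against 7.95% of all genes), among them both chains of the interleukin 1 receptor, IL1R1 (-0.87 ± 0.20) and IL1RAP (-0.81 ± 0.13), and CXCR2, which binds CXCL1, CXCL2, CXCL3 and CXCL8 (-0.84 ± 0.10). CCR2 was the receptor gene called with C-body null against dTAG mCherry, at 43.98 CPM against 27.1 (0.70 ± 0.09, edgeR adjusted p = 0.0011).

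Of 17 other cytokine and chemokine genes tested, 8 rose and 0 fell in dTAG mCherry against NTC DMSO (47.1% higher, against 12.9% of all genes), with the anti-inflammatory cytokine IL10 first, at 1.26 CPM against 0.0841 (3.83 ± 0.38). With FL-NPM1c 3 were higher than in dTAG mCherry, CXCL9, CXCL11 and the interleukin 12 subunit IL12B (1.42 ± 0.21), and 5 were lower, led by the TNF family ligands TNFSF14 (-2.07 ± 0.17) and TNFSF13B (-1.22 ± 0.11), or 17.6% and 29.4% where 7.58% and 7.95% of all genes were called. CXCL9 is counted here with the limit of the low-count filter given above. Of 33 other response genes 16 rose and 4 fell in dTAG mCherry against NTC DMSO, and 7 were higher and 7 lower with FL-NPM1c against dTAG mCherry. The shares were 48.5% and 12.1%, against 12.9% and 9.69% of all genes, in the first comparison and 21.2% in each direction, against 7.58% and 7.95%, in the second. In the second of these comparisons the interferon regulatory factor IRF1 had 55.9 CPM with FL-NPM1c against 26.2 in dTAG mCherry (1.09 ± 0.10), and the survival gene BCL2A1 had 2.43 CPM against 6.90 (-1.51 ± 0.17). Of 10 factors that bind cytokine transcripts for decay or stability, 3 rose and 2 fell in dTAG mCherry against NTC DMSO (5 of 10, where 22.6% of all genes were called). Among these were ZFP36L1 at 14.6 CPM against 2.45 (2.57 ± 0.15) and ZFP36 (tristetraprolin) at 74.7 CPM against 45.0 (0.73 ± 0.09).

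Markers of monocytes and macrophages rose more widely than the members in dTAG mCherry against NTC DMSO. All 18 tested of 20 markers rose (median log2 change 3.24), where 12.9% of all genes rose. Of the 39 members 13 rose and 2 fell (median 0.17). The summed level of the markers was 3365 to 3584 CPM in dTAG FL-NPM1c and 4948 to 5158 in dTAG C-body null. It was 3792 to 4198 in dTAG mCherry and 608 to 648 in NTC DMSO. LYZ, the lysozyme gene, made up 70.9% to 73.7%, 73.8% to 75.1%, 67.5% to 69.9% and 52.3% to 56.8% of these sums in the same order of groups. Without LYZ the other markers summed to 887 to 1042 CPM in dTAG FL-NPM1c, 1282 to 1330 in dTAG C-body null, 1233 to 1302 in dTAG mCherry and 279.9 to 289.7 in NTC DMSO. With FL-NPM1c 2 tested markers were higher and 6 lower than in dTAG mCherry. The shares were 11.1% and 33.3%, against 7.58% and 7.95% of all genes. For FL-NPM1c against C-body null 0 were higher and 9 lower (0% and 50%, against 4.82% and 4.86%). The members went both ways, with 10 higher and 8 lower in the first comparison and 9 higher and 8 lower in the second. Neutrophil markers summed to 45.7 to 52.5 CPM with FL-NPM1c, 93.7 to 110.8 with C-body null, 83.9 to 100.5 in dTAG mCherry and 31.7 to 39.6 in NTC DMSO, of which CSF3R alone gave 65.9% to 84.5% over the 12 libraries. Their part in the results was not tested, and in bulk RNA pooled from many cells, sorted or not, a change in the share of cells that express a gene cannot be told apart from a change in RNA per cell.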

How the data were processed

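The 12 libraries were made from total RNA by the TruSeq Stranded mRNA method (per the labels' protocols), and the deposited values are raw counts per Ensembl gene. STAR, featureCounts, DESeq2 and hg38 appear in the submitters' processing notes, without versions. How the counting treated strand and multi-mapping reads is not stated there. Exons of 12 members overlap those of another gene. Columns were matched to samples by library number, and groups followed titles. Symbols came from a gene name table and GENCODE 29; 2 genes on 6 broken lines were left out. SOD2 has no GENCODE 29 length.

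Counts were analysed in edgeR 4.0.16 (R 4.3.3): filterByExpr left 24064 genes, TMM factors were 0.975 to 1.02, and all 12 libraries entered 1 robust quasi-likelihood fit. Calls are Benjamini-Hochberg adjusted p under 0.05 over all genes; SE is the log2 change over the root of F. A simulation of dTAG mCherry against NTC DMSO (23600 genes) recovered 40 of 67 genes altered 1.5-fold, 57 of 67 altered 2-fold and 66 of 66 altered 4-fold. It gave 6 false among 169 calls. The simulation altered 200 genes, all above a count floor, far fewer than the 5429 called in the data. Its rates do not carry over to members with few counts. The alternatives left out each library in turn, added a replicate block, fitted the 2 groups alone, dropped the low-count filter, used library totals or RLE factors, or ran DESeq2 1.42.0.

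Every library's value is given for members called with a log2 change of at least 1 and for IL1B, TNF, NFKB1, RELA, NFKBIA and TNFAIP3 (for NFKB1 as a range); others are given by means or ranges. Members, lists, tests and the rule for named genes were chosen with earlier results of these data known. Promoter windows are RefSeq, GRCh38.p14; motifs were searched in Python 3.11.15.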

Additional observations from a re-analysis of the deposited data

How the results depend on the processing

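Counts of called members stayed within 1.5 times the reported count under every alternative in 5 of the 6 comparisons. The exception was C-body null against dTAG mCherry, with 3 calls by DESeq2 and 0 to 5 with a library left out, against 1 as reported. Without 1 library the counts were 12 to 15 for dTAG mCherry against NTC DMSO, 13 to 22 for FL-NPM1c against dTAG mCherry, 13 to 17 for FL-NPM1c against C-body null, 19 to 25 for FL-NPM1c against NTC DMSO and 16 to 18 for C-body null against NTC DMSO. Over the same fits the share of all genes called ran from 16.8% to 24%, 6.61% to 27.8%, 5.57% to 8.73%, 17% to 31.7% and 18.5% to 28.6%; the 22 calls for FL-NPM1c against dTAG mCherry came where 27.8% of all genes were called. Replicate numbers did not pair the libraries (correlations of same-numbered deviations -0.31 to 0.16); with the replicate number as a block the counts were 14 for dTAG mCherry against NTC DMSO, 16 for FL-NPM1c and 1 for C-body null against dTAG mCherry, 17 for FL-NPM1c against C-body null, and 22 for FL-NPM1c and 16 for C-body null against NTC DMSO. The block ended 5 calls: TNF in dTAG mCherry against NTC DMSO (0.30, adjusted p = 0.063), TNFRSF1B (-0.39, 0.085) and CCL3 (-0.70, 0.066) with FL-NPM1c against dTAG mCherry, and CXCL2 with FL-NPM1c (0.50, 0.054) and C-body null (0.49, 0.066) against NTC DMSO. Of 91 called member results 73 passed in every alternative that gave a value, 18 lost their call in at least 1, and 0 reversed. DESeq2 gave CXCL10 no adjusted p for FL-NPM1c against dTAG mCherry, so that result had 11 alternatives. No scaling moved the median of all genes by more than 0.0531 on the log2 scale. Depth limits CXCL10 (1 to 44 counts a library), PTX3 (4 to 14) and the 5 untested members most.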
